A study of Mus musculus with 18 samples.

Results

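Messenger RNA isoforms whose 3′ untranslated region (3′ UTR, the stretch between the stop codon and the poly(A) tail) is longer than 1200 nt were described in cultured mouse myotubes. They were taken from 2 deposited tables by the length of the listed 3′ UTR sequence alone, over nuclear chromosomes and in every annotation class. This gave 863 isoforms of the 11301 distinct isoforms in the tables. Of them, 582 were among the 7123 isoforms of the polysome table, 416 among the 6636 of the decay table, and 135 in both.

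The libraries were made by TIF-seq2, which sequences both termini of each captured transcript. Primary myoblasts of wild-type female mice, taken from the gastrocnemius, had become myotubes under SCH772984 (1 µM, 24 h), an inhibitor of ERK kinases that every library shares. Polysome profiling used 2 mice, whose lysates, after 5 min in 100 µg/ml cycloheximide and a 10 to 50% sucrose gradient, were split into polysome-free, light (2 to 5 ribosomes) and heavy (6 or more ribosomes) fractions. The decay assay used actinomycin D, an inhibitor of transcription, at 7.5 µg/ml for 0, 3, 6 and 12 h, with 3 mice per time. No age of the mice is given in the sources used here.

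The tables give each isoform 1 coverage count summed over the libraries and 1 derived value: for the polysome assay a TE (translation efficiency), for the decay assay a half-life. No column belongs to a single library, so the spread between mice cannot be computed, and no difference reported here could be set against it. Summed coverage was 1601919 in the polysome table and 3121491 in the decay table, and the depth of each library is unknown. Isoforms named as 9 of 13 myotube genes listed for the check, among them Des, Acta1, Tnni1, Actc1 and Myog, made up 8.32% of coverage in the polysome table and 7.69% in the decay table. The other 4, Myod1, Myl1, Tnnt3 and Mymk, had no matched isoform, nor had any of 7 fibroblast genes, among them Col1a1 and Dcn. Since naming starts from matches to RefSeq promoter windows, a gene without a match may still be in the tables, and its level is unknown.

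The 3′ UTR carries binding sites for microRNAs and for RNA-binding proteins that act on the translation and decay of the mRNA. Many genes have several polyadenylation sites, so the same coding region can end in a short or a long 3′ UTR. Cleavage usually follows a hexamer, AAUAAA or its variant AUUAAA, that stands a short way before the end. Known 3′ UTR elements include AUUUA pentamers and the longer AU-rich nonamer, both linked to mRNA decay, and the motif of Pumilio proteins, which repress their targets. miR-1, miR-206 and miR-133 are microRNAs of muscle.

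The sequences below show the ends that shorter and longer isoforms of the same start used, and examples of sites within long UTRs. The first 6 are stretches of 30 nt at or near the 3′ ends of shorter and longer isoforms of Tpm2, Timp2 and Ak1 as deposited, 5′ to 3′ in the mRNA sense, with the polyadenylation hexamer in capitals. Tpm2 encodes β-tropomyosin of the sarcomere's thin filament, Timp2 an inhibitor of matrix metalloproteinases, and Ak1 the adenylate kinase of muscle cytosol.
Tpm2, shorter end, UTR of 238 nt: actacttAATAAActctgaacttggtctcc
Tpm2, longer end, UTR of 1209 nt: tcctcgggccAATAAActgatgttactggc
Timp2, shorter end, UTR of 108 nt: gaaacagcatgAATAAAacatcaatcatcc
Timp2, longer end, UTR of 2636 nt: caatggacAATAAAccatattatcaaagag
Ak1, shorter end, UTR of 153 nt: gtcccatggacactaaagaaattgccaagg
Ak1, longer end, UTR of 1347 nt: ctttaaaataAATAAAtgtatttcagttat
In GRCm39 coordinates they lie at chr4:43515683-43515712, chr4:43514712-43514741, chr11:118194417-118194446 and chr11:118191889-118191918 on the minus strand, and at chr2:32523845-32523874 and chr2:32525039-32525068 on the plus strand. Both ends of Tpm2 and of Timp2 had AAUAAA, while the shorter end of Ak1 had neither hexamer in its last 40 nt.

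Sites within long UTRs are shown next, with the motif in capitals, since these UTRs held the most copies of their motif, alone or tied, among members of a table.
Bub3, nonamer at UTR nt 1091 to 1099: aaagaggtttTTATTTATTtatttatttat
Diablo, miR-29 site at UTR nt 522 to 528: aacagctcaccTGGTGCTccccacaggccc
Vat1, miR-133 site at UTR nt 919 to 925: ccagcctctggGGACCAAttgcttttactg
Cd164, Pumilio motif at UTR nt 1525 to 1532: acttgcacattTGTACATAtatctaatgtt
mmu-miR-29a-3p: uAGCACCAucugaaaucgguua
mmu-miR-133b-3p: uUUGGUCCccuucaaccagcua
mmu-miR-206-3p: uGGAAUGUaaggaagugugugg
The 3 mature microRNAs are those of RefSeq (GRCm38.p6), with the seed, bases 2 to 8, in capitals, and each microRNA site is the reverse complement of a seed. The Bub3 stretch is part of a run in which 4 overlapping nonamers started at UTR nt 1091, 1095, 1099 and 1103. In Diablo, the identical 30 nt occurred 6 times in 1 UTR, with the site at nt 522, 820, 1129, 1417, 1691 and 2494.

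Members were 8.69% of the 6698 nuclear polysome isoforms with a 3′ UTR sequence. They held 3.42% of the coverage of the whole table (exact binomial 95% interval 3.39 to 3.44%). In the decay table they were 6.57% of 6333 such isoforms and held 2.12% of the whole coverage (2.10 to 2.13%). Such intervals cover counting error only. The coverage shares are of all 7123 and 6636 isoforms, 28 and 43 of them mitochondrial. Their base is wider than that of the isoform shares, so the shares do not compare directly. The median coverage of a member was 26.5 in the polysome table, where all isoforms had a median of 34, and 52.5 in the decay table, where all had 72. Members therefore rested on fewer reads than the rest of each table. Their UTRs had a median of 1607 nt (quartiles 1351 and 1882.5) in the polysome table and 1584.5 nt in the decay table. Only 18 and 13 members had UTRs over 3000 nt.

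The 582 polysome members shared 360 distinct 3′ ends and the 416 decay members 319. Over both tables there were 502 long 3′ ends, of which 177 occurred in both, so many members differ only in their 5′ end and share the whole long UTR. Tpm2 and Jph2, a junctophilin that couples the plasma membrane to the sarcoplasmic reticulum of muscle, each supplied 18 polysome members. Igf2, the imprinted insulin-like growth factor, supplied 14 decay members. A gene name could be given to 281 polysome and 194 decay members, of 178 genes in all.

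At the length limit, members just inside it and isoforms just outside it are given with their coverage and no test. Just inside stood Fntb, the β subunit of protein farnesyltransferase, with 1205 nt, a TE of 0.000489 (coverage 51) and a half-life of 9.88 (coverage 73). Ccdc134, with 1209 nt, had a TE of 0.000729 (coverage 19) and 0.000691 (coverage 272) from a pair of starts, and a half-life of 11.6 (coverage 339). The isoform of chr4:55350073-55391205, with 1208 nt and a coverage of 42, had a half-life of 10.7. Just outside, the isoform of chr11:77928837-77951257, with 1198 nt, had a TE of 0.000609 (coverage 102) and a half-life of 12.6 (coverage 94). Cdip1 with 1198 nt had a TE of 0.000745 (coverage 88), and the isoform of chr15:74576410-74581130 with 1200 nt one of 0.000377 (coverage 42). The half-lives of Trim7 with 1198 nt, 99.8, and of Anxa7 with 1200 nt, 20.7, rested on a coverage of 21 and 24, below the minimum of 30. TE values inside lay within the range of those outside, whereas the 3 half-lives outside were all above the 3 inside.

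Most members were annotated transcripts, 59.3% in the polysome and 62.0% in the decay table, against 53.3% and 54.1% of all nuclear isoforms with a 3′ UTR. The long class took 14.8% of the 230 polysome isoforms whose 3′ end lay beyond the annotated one and 5.86% of the 1127 whose 3′ end lay before it. In the decay table these shares were 15.1% of 259 and 3.63% of 1184. Cdc37, the Hsp90 co-chaperone of protein kinases, was the most covered extended member in both tables, with a UTR of 1521 nt and coverages of 1762 and 2696.

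A group of members had UTRs that did not lie within the molecule. In 41 polysome and 24 decay members the listed 5′ and 3′ UTRs together were longer than the genomic span from the 5′ to the 3′ end. Of these, 38 and 22 had no 5′ UTR sequence, so their start lay inside the listed 3′ UTR. The others list a 5′ UTR as well, and where they start relative to the 3′ UTR is unclear. No TE was given for 38 of the 41. In the decay data 12 such starts of Igf2 led to the 3′ end at chr7 position 142204506 with a coverage of 1034, which was 79.2% (exact interval 76.9 to 81.3%) of all coverage that ended there. Their half-lives ran from 6.85 to 12.2, and the Igf2 isoform from the upstream start with the most coverage had 8.57. In the polysome table, 13 starts inside the Jph2 UTR held 8.28% of the coverage of that end, and none had a TE. The longest UTR of the polysome table, 7182 nt, belonged to an isoform whose span was only 495 nt.

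The long UTRs differed little in median GC content from those of 300 to 1200 nt, but with both tables pooled fewer of them were GC-poor. Over the 502 distinct ends, 907 kb of sequence in all, the median GC content was 51.5% (quartiles 48.0 and 54.5%, range 33.9 to 64.9%). Shorter UTRs were put into classes of 1 to 300, 300 to 600 and 600 to 1200 nt, each without its lower limit. Their medians were 48.3% up to 300 nt, 51.1% of 300 to 600 nt and 51.0% of 600 to 1200 nt. UTRs with a GC content below 40% made up 4.58% of the long class. They made up 19.2% up to 300 nt, 10.4% of 300 to 600 nt and 9.95% of 600 to 1200 nt. Within a long UTR, the GC content was 52.8% over the first 300 nt after the stop codon and 48.4% beyond nt 1200, with uridine at 25.2 and 27.4%.

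The tables held long UTRs of different composition. Among the 183 long 3′ ends listed only in the polysome table the median GC content was 52.9%, and 0.546% of them lay below 45%. Among the 142 listed only in the decay table the median was 45.9% and 45.8% lay below 45%. The 177 ends in both tables had a median of 52.6%. The same difference was present in shorter classes, where UTRs of 600 to 1200 nt lay below 45% GC in 6.20% of polysome and 24.8% of decay ends. For all long ends these shares were 2.78% and 23.2%. Within the decay table the long class was thus near that of 600 to 1200 nt. A usable half-life existed for 57 long ends below 45% GC and a usable TE for 3, so the TE values described here are almost all those of GC-rich long UTRs. What set the listing of GC-poor long UTRs in each assay was not tested.

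**Figure D1:**
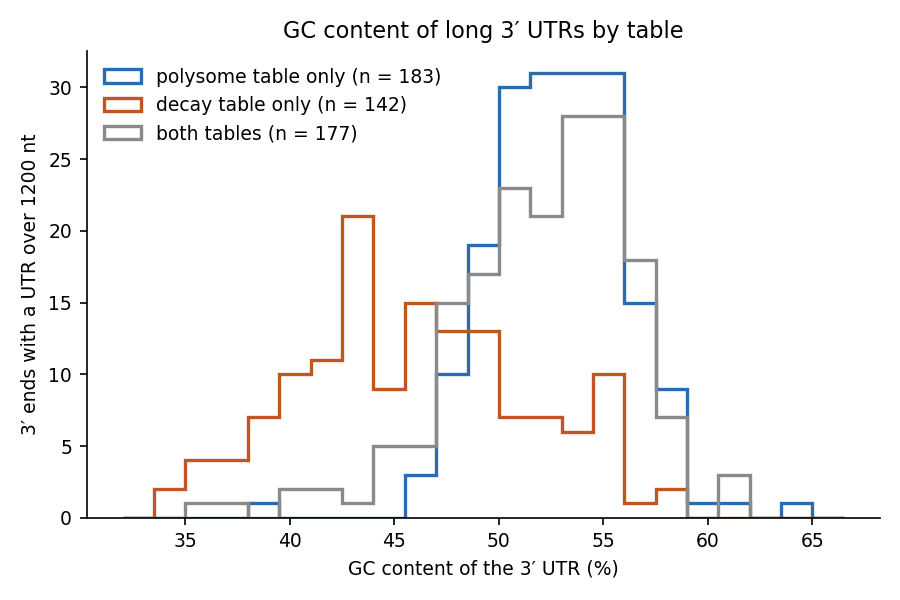
GC content of the distinct long 3′ UTRs (percent, bins of equal width) against the number of 3′ ends, for ends listed only in the polysome table (183), only in the decay table (142) and in both (177). The decay-only outline is centred near 46% and the other outlines near 53%.

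Motif counts were read on the sense strand, with overlapping matches counted, and set against the number that each UTR's base composition gives. AUUUA occurred 0.975 times per kb in long UTRs (exact Poisson 95% interval 0.912 to 1.04), where composition gives 1.10. It was thus slightly rarer than composition gives, as in the class of 600 to 1200 nt (1.13 against 1.21). At least 1 copy stood in 70.7% of long UTRs, against 16.9%, 36.1% and 52.6% in the shorter classes. The UTR of Bub3, a protein of the spindle checkpoint, had the most copies among decay members, 15, in a UTR with 38.2% GC.

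The nonamer UUAUUUAUU was found 47 times in 34 of the 502 long UTRs, 6.80 times the number that composition gives. The ratio was 5.57 in the shortest class, 3.81 of 300 to 600 nt and 4.19 of 600 to 1200 nt. Its density of 0.0518 per kb (0.0381 to 0.0689) lay within the intervals of the classes of 300 to 600 and 600 to 1200 nt.

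The Pumilio motif UGUANAUA was sparser in longer classes. Its density was 0.272 per kb up to 300 nt, 0.181 of 300 to 600 nt, 0.152 of 600 to 1200 nt and 0.0970 (0.0778 to 0.119) in long UTRs. The interval of the long class does not overlap that of any shorter class. Even so, 15.5% of long UTRs held it, against 4.20% of the shortest, because each long UTR offers more sequence. Along the long UTRs its density was 0.126 per kb in the first 300 nt and 0.0531 from nt 300 to 600. It was 0.0730 from nt 600 to 1200 and 0.128 beyond. These densities rest on 88 sites in all and no interval was computed for a stretch, so their order is not read. Cd164, a sialomucin of the cell surface, held 2 copies in 2200 nt.

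Sites for microRNA seeds were about as dense in long as in shorter UTRs. The long class held 0.0661 sites per kb for the seed shared by miR-1 and miR-206 (ACAUUCC), 0.0727 for miR-133 (GGACCAA), 0.0915 for let-7 (CUACCUC), 0.144 for miR-29 (UGGUGCU) and 0.234 for miR-24 (CUGAGCC). For each of them this lay within the intervals of the class of 600 to 1200 nt. The share of long UTRs with at least 1 site was 10.4% for miR-206, 12.2% for miR-133, 14.9% for let-7, 21.7% for miR-29 and 32.9% for miR-24. Diablo, a mitochondrial protein that binds inhibitors of apoptosis, had the most miR-29 sites, 6 in 2615 nt, all in the repeated stretch printed above. Vat1 carried 2 miR-133 sites in 1447 nt. Ends of the same gene share sequence, and so do repeats. Of 131 miR-29 sites with 30 nt of context, 116 had distinct contexts, and for AUUUA 760 of 850 did, so the counting intervals are too narrow. A match is a string of letters and does not show that anything binds there.

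**Figure D2:**
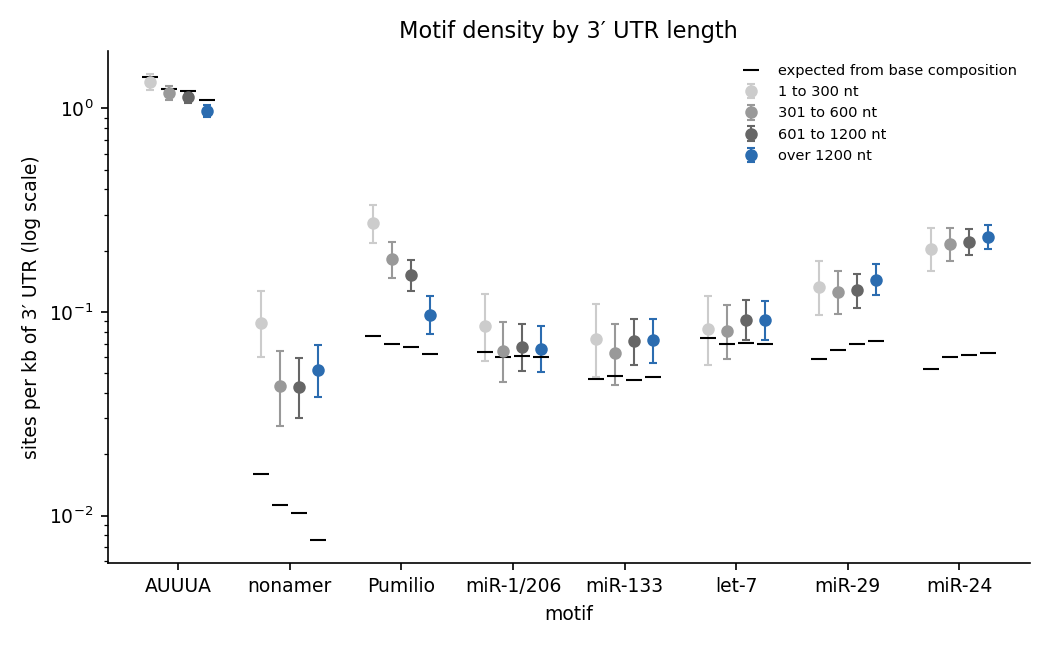
Sites per kb of 3′ UTR (log scale) for 8 motifs in 4 length classes, with exact Poisson 95% intervals as bars and the density that base composition gives as black dashes. The Pumilio motif stands at 0.272 per kb in the shortest and 0.0970 in the long class, while the 4 points of each microRNA seed match lie close to each other.

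Polyadenylation hexamers stood at most long ends. AAUAAA lay in the last 40 nt of 63.3% of the 502 long UTRs and either hexamer in 79.1% (exact 75.3 to 82.6%), against 72.8% of UTRs up to 300 nt and 78.0% of those of 600 to 1200 nt. Long UTRs ending at an annotated site had either hexamer in 85.7% (81.8 to 89.0%) and those with a new 3′ end in 57.6% (48.2 to 66.7%). An AAUAAA further upstream was present in 36.7% of long UTRs and in 21.1% of those of 600 to 1200 nt. Per length these sites were about equally dense, with 0.334 and 0.336 per kb upstream of the last 40 nt. In long UTRs with a new end the share was 45.8% and the density 0.560 per kb, against 33.9% and 0.262 with an annotated end.

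At many starts the tables also listed a shorter partner, an isoform with the same 5′ end and a 3′ UTR of at most 1200 nt. This held for 163 of 568 member starts in the polysome table (28.7%) and 137 of 399 in the decay table (34.3%). The partner with the most coverage had a median UTR of 239 and 240 nt. At 31 of the 163 and 26 of the 137 starts its UTR was not nested in that of the most covered long isoform, so these isoforms differ in more than an extended end. The long isoforms held a median of 35.2% of the coverage at these starts in the polysome table and 29.8% in the decay table. Summed over starts their share was lower, 20.5% (20.2 to 20.7%) and 15.9% (15.7 to 16.1%), since heavily covered starts ended mostly in short UTRs. The start at chr8 position 124621490 alone brought 28342 polysome and 42437 decay reads to these sums. Its long isoform, ending at position 123655451, had a coverage of only 15 and 28, or 0.0529% and 0.0660%. The pooled shares depend on such starts. Long isoforms took the majority of coverage at 43 and 42 starts. At the shared starts, AAUAAA marked the short end at 32.5% and the long end at 65.0% of starts in the polysome table. In the decay table it did so at 39.4% and 63.5%. An end used from several starts, such as those of Tpm2, was counted at each of them, so these are not shares of distinct ends. Over another set, all 2020 distinct UTRs of 40 to 300 nt in both tables, AAUAAA lay in the last 40 nt of 58.7%. For all distinct long UTRs this share was 63.3%. Those sets are not the partner ends, whose shares counted once per end are not given here.

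The long share varied widely between starts. At the Jph2 start at chr2 position 163239883, 4155 of 4193 polysome reads (99.1%) ran to the long end. At the Tcf25 start, whose product takes part in ribosome-associated quality control, 34.9% of polysome and 34.7% of decay coverage ended in the UTR of 3104 nt. Timp2 used its long end in 16.6% and 15.1%.

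The same starts could be read in both assays at 57 positions. Across them the long share in the polysome table and in the decay table had a Spearman rank correlation of 0.876, given as a description. The polysome share was higher by a median of 2.22 percentage points and was the higher one at 37 starts. Their exact intervals did not overlap at 25 starts, 14 with the polysome share higher and 11 with it lower. Of the 14, 4 were starts of Tpm2 and 3 of Ak1, so counted once per long 3′ end they were 9 higher and 11 lower. The same count over starts with shorter isoforms alone is not given here, and the intervals cover counting error only. The 25 of 57 are therefore not read as a trait of long ends. Wide gaps occurred in both directions. At the main Tpm2 start the long end took 34.8% (34.0 to 35.6%) of 13778 polysome reads and 8.50% (8.26 to 8.75%) of 50973 decay reads. At the Ak1 start at position 32515500 it took 88.0% and 61.7%. The start at chr10 position 77351618 had 38.3% and 11.4%. Other starts went the other way, such as chr15 position 99290867 with 43.2% and 76.7%. Igf2 had 43.2% and 77.0%, and Smim7 5.23% and 27.0%. The chr10 start, Igf2 and Smim7 are named here after their values were seen. Coverage is pooled over fractions in one table and over times after actinomycin D in the other, and the part of this pooling in the differences was not tested.

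**Figure D3:**
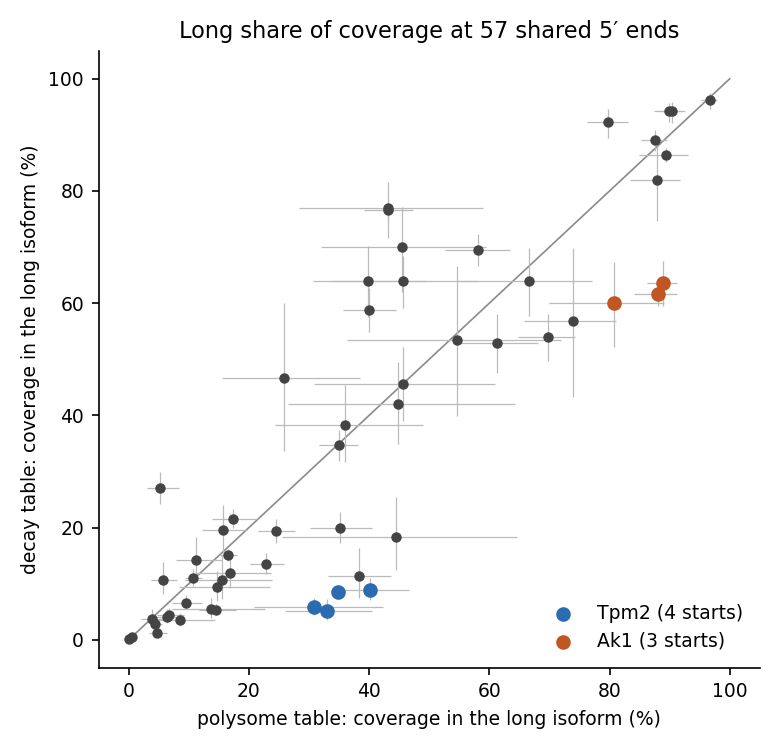
Share of coverage (percent) held by the long isoforms at 57 shared 5′ ends, polysome table on the x axis and decay table on the y axis, with exact binomial 95% intervals and the line of equality. The 4 Tpm2 and 3 Ak1 starts lie below the line.

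TE and half-life were read for isoforms with a coverage of at least 30 and a value above 0. This kept 256 of 582 polysome members (88.9% of their coverage) and 320 of 416 decay members (96.4%). A coverage under 30 left out 312 and 91. A value was missing for 48 and 10 members in all and lay below 0 for 6 and 2, each of these with a coverage of at most 13 in the polysome and 28 in the decay table. The sources used here state neither the formula behind TE, including any scaling by length, nor the unit of the half-life, although the labels give the times in hours.

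TE was lower in longer classes. The median was 0.000934 for UTRs up to 300 nt, 0.000712 of 300 to 600 nt, 0.000583 of 600 to 1200 nt and 0.000431 (quartiles 0.000311 and 0.000562, 256 isoforms) in the long class. Within the long class it was 0.000476 at 1200 to 1500 nt, 0.000403 at 1500 to 2000 nt and 0.000324 above 2000 nt. Of the 256 members, 244 (95.3%) lay below the median of all shorter isoforms, 0.000777. The quartiles of the long class overlap those of 300 to 600 and 600 to 1200 nt, whose lower quartiles were 0.000511 and 0.000428. They do not reach those of UTRs up to 300 nt, which start at 0.000649. Between overlapping classes, length alone does not order single isoforms.

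The most covered members give the level in named genes. Tpm2 from its main start had a TE of 0.000466 (coverage 4798), Jph2 0.000345 (4155), Cdc37 0.000429 (1762), Hyal2, a membrane-anchored hyaluronidase, 0.000299 (1702) and Nkiras2, a Ras-like inhibitor of NF-κB signalling, 0.000407 (1588). All 5 lay below the median of shorter isoforms. Among members with a coverage of at least 100, the lowest value was 0.000152 for Cdk16, a cyclin-dependent kinase, with a UTR of 1231 nt. The longest, of 3374 nt at chr15:74619706-74624826, had 0.000262, Tcf25 had 0.000206 and Wbp1l, with 2668 nt, 0.000291.

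The 12 members above that median had UTRs of 1214 to 1511 nt, in the shorter part of the class. They included Nkiras2 from a start inside the annotated transcript (0.00101) and Adgrg1, an adhesion G protein-coupled receptor, whose 2 isoforms had 0.00104 and 0.00147. Adgrg1 is named after its values were seen. Adgrg1 also had another start with the same UTR and a TE of 0.000438, so the same 3′ UTR came with values that differed by 3.35 times.

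**Figure D4:**
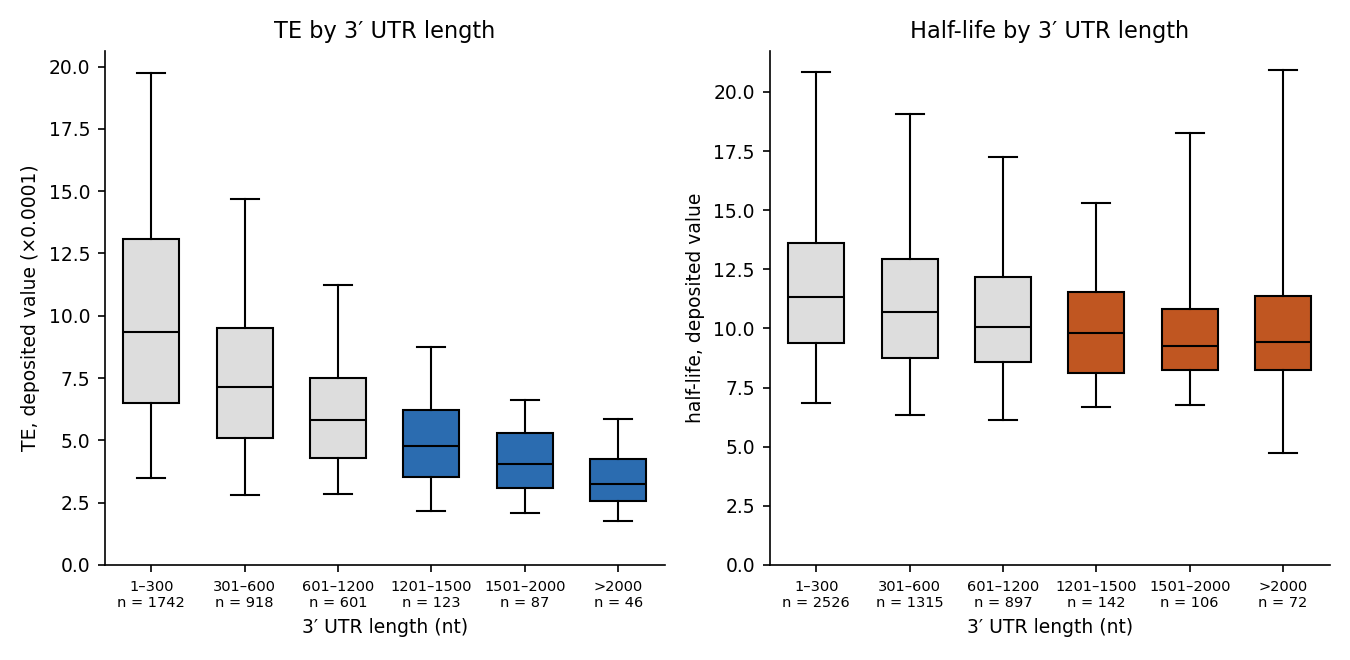
TE (left, in units of 0.0001) and half-life (right, unit not stated) by 3′ UTR length. Boxes show quartiles and median, whiskers the 5th and 95th percentile, grey boxes the shorter classes and coloured boxes the long class, with medians from 4.76 to 3.24 in TE and between 9.25 and 9.83 in half-life.

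Pairs with the same start compare a long isoform with the most covered partner at least 100 nt shorter. There were 65 such pairs with TE in both isoforms, with a median coverage of 85 for the long and 139 for the short one. TE was lower in the long isoform in 59 of the 65 (90.8%), with a median log2 difference of -0.71, a ratio of 0.611. The longer isoform was lower in 89.0% of all 209 same-start pairs of the table, with a median of -0.42. Among the 147 pairs with both UTRs up to 1200 nt it was lower in 88.4%, with a median of -0.34. The direction was thus about as frequent in pairs of shorter isoforms, while the median difference was larger in the 65. The 65 added a median of 1194 nt, whereas pairs with both UTRs up to 1200 nt always add less than 1200 nt. These sets were picked by different rules and not matched for added length, here and in the 1.5-fold shares. TE in the long isoform was lower by more than 1.5-fold in 39 of the 65, 60%. This share was 35.4% among all 209 pairs and 24.5% among the 147. In 0 of the 65 was the long isoform higher by more than 1.5-fold, with 0.478% among all pairs and 0.68% among pairs of shorter isoforms. Since no value per mouse exists, none of these calls carries a test. As a yardstick for measurement noise, 35 same-start pairs whose 3′ ends lay less than 50 nt from each other had quartiles of -0.22 and 0.12 on the log2 scale, with an SD of 0.40, around a median of -0.01.

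The difference was larger in pairs with more added sequence. With 1000 nt or more added, the median log2 difference was -0.88 over 43 pairs, and with less than 1000 nt it was -0.48 over 22. Against partners with UTRs up to 300 nt it was -0.83 over 45 pairs, and against longer partners -0.40 over 20. Several pairs share their 3′ ends, above all the 8 Tpm2 starts. With 1 pair for each of the 53 long 3′ ends the median was -0.73, with 47 pairs lower. In 55 pairs the shorter 3′ UTR was nested in the longer one, and their median was -0.73.

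Tpm2 had the best covered pair. Its short isoform, with 238 nt and a coverage of 8897, had a TE of 0.000831, and the long one 0.000466, a log2 difference of -0.83. All 8 Tpm2 starts with a pair went the same way, from -0.83 to -0.42, with long isoforms at 0.000366 to 0.000671 and short ones at 0.000559 to 0.000951. The short Timp2 isoform had 0.00109 (UTR of 108 nt, coverage 2419) and the long one 0.000486 (2636 nt, 480). Tcf25 had 0.000426 with 99 nt and 0.000206 with 3104 nt, in a pair whose UTRs are not nested, so the coding ends may differ too.

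Ak1 had a wide gap at both of its starts, 0.00232 against 0.000655 and 0.00250 against 0.000688, although its short isoforms had coverages of only 40 and 75. Dnlz, a partner of mitochondrial Hsp70, showed 0.000923 (109 nt, coverage 513) and 0.000175 (2282 nt, coverage 34). The widest gap, -2.85, was at chr4 position 152410320, from 0.00104 with 52 nt to 0.000145 with 1644 nt. Of the 6 pairs in which the long isoform was the higher one, the largest difference was 0.46 for Evi5l, with coverages of 85 and 30, and Rara, the retinoic acid receptor α, had 0.42. Dnlz, Evi5l and Rara are named after their values were seen.

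**Figure D5:**
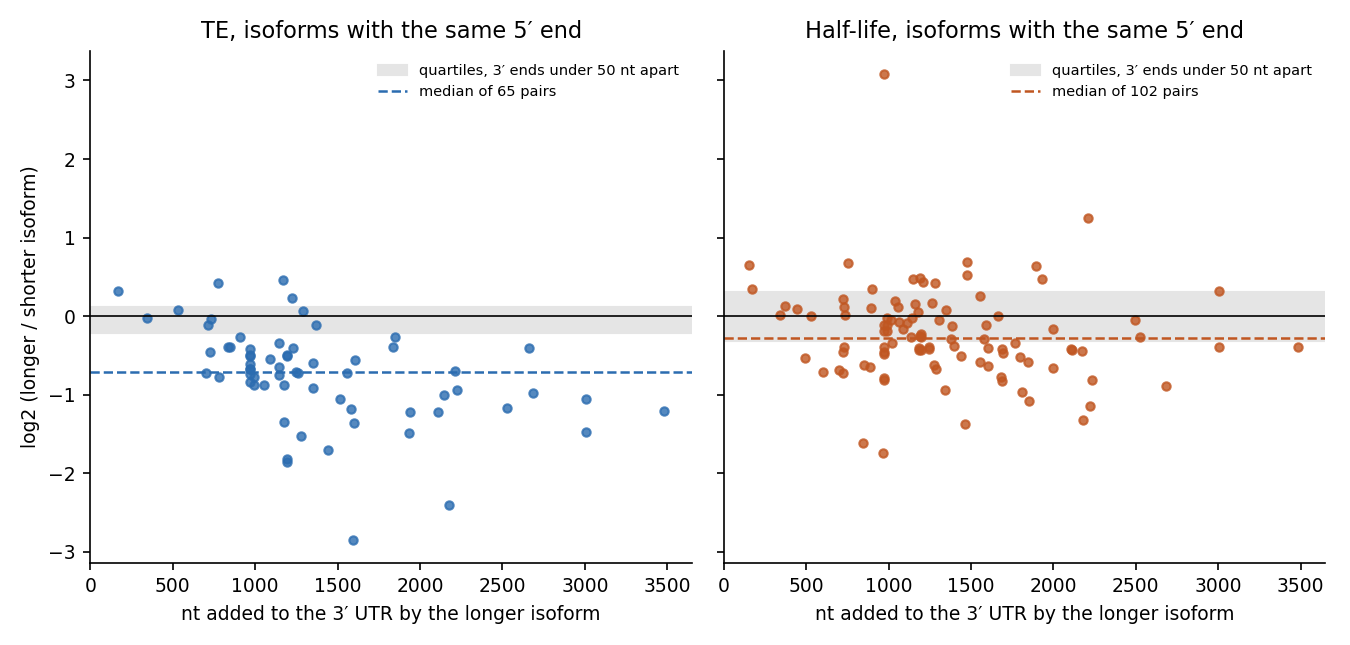
Difference between the long isoform and its shorter same-start partner (log2 of longer over shorter) against the nt added, for TE (left, 65 pairs) and half-life (right, 102 pairs). The dashed lines mark medians of -0.71 and -0.28, and the grey bands the quartiles of pairs with 3′ ends under 50 nt apart, -0.22 to 0.12 and -0.32 to 0.31.

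Half-life varied less with length. Its median was 11.3, 10.7 and 10.1 in the shorter classes and 9.52 (quartiles 8.22 and 11.3, 320 isoforms) in the long class. Within the long class the medians did not follow length, with 9.83, 9.25 and 9.42 at 1200 to 1500, 1500 to 2000 and over 2000 nt. Of the 320 members, 229 (71.6%) lay below the median of shorter isoforms, 10.9.

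Members with a coverage of at least 100 had half-lives from 3.81 to 119. Tpm2 from its main start had 11.8 (coverage 4333), Cdc37 11.6 (2696), Nkiras2 11.8 (1836) and the isoform at chr8:122317207-122324785 13.7 (2827). Hyal2 had the lowest of these values, 3.81, and its isoform had a coverage of 111 in the decay table and 1702 in the polysome table. The highest, 119, came from a Tpm2 isoform that starts inside the gene at position 43516009 and has no 5′ UTR sequence. The next of these was 25.7 at chr2:35203998-35226988. Values of 143 and 1159, the latter for Smyd1, a lysine methyltransferase of muscle, belonged to isoforms with coverages of 47 and 34.

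The 102 half-life pairs had a median log2 difference of -0.28, a ratio of 0.824, with the long isoform lower in 71 (69.6%). The longer isoform was lower in 63.8% of all 395 same-start pairs, with a median of -0.17. Among the 296 pairs of shorter isoforms it was lower in 61.1%, with a median of -0.16. In the 102 pairs the long isoform was lower by more than 1.5-fold in 24, or 23.5%, against 20.3% of the 395 and 18.2% of the 296. It was higher by more than 1.5-fold in 6, or 5.88%, against 6.33% of all pairs and 6.76% of pairs of shorter isoforms. Both 1.5-fold shares were near those of the whole table, in sets again not matched for added length. The 82 pairs with 3′ ends under 50 nt apart had quartiles of -0.32 and 0.31 around a median of 0.00, where the long pairs had -0.53 and 0.07. Their SD of 0.83 rests heavily on 1 pair at -5.62.

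The median differed with the length of the partner. Against partners up to 300 nt the median was -0.39, with 53 of 65 pairs lower, and against longer partners 0.01, with 18 of 37 lower. The long isoform was lower by more than 1.5-fold in 15 of the 65 and 9 of the 37, and higher by as much in 1 and 5. The short and long isoforms had 13.0 and 10.8 in Timp2 and 14.7 and 11.1 in Tcf25. Ak1 had 14.1 and 10.4 at its best covered start and a lower value in the long isoform at all 3 starts. Tpm2 differed little at its main start, 12.8 and 11.8, and was lower in the long isoform at 7 of 8 starts, the exception being the value of 119. With 1 pair for each of the 87 long 3′ ends the median was -0.29, with 60 lower.

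Pairs measured in both assays numbered 26. The long isoform was lower in TE in 24, lower in half-life in 19 and lower in both in 18. The medians were -0.86 for TE and -0.34 for half-life. Timp2, Ak1, Tcf25, Dnlz, Carhsp1, an RNA-binding cold-shock protein, and Ncaph2, a condensin II subunit, were lower in both. Cacnb1, the β subunit of the muscle calcium channel, was lower only in half-life, with 12.0 and 7.52, and had TEs of 0.000431 and 0.000449. Fem1a, a substrate receptor of ubiquitin ligases, had near equal values in both, with log2 differences of -0.02 and 0.02. Dnlz, Carhsp1, Ncaph2, Cacnb1 and Fem1a were picked here after their values were seen.

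TE and half-life could be set side by side in 89 members. Over these the Spearman rank correlation was 0.0552, and over 1606 shorter isoforms 0.190, both as descriptions over isoforms that share libraries. Of the 89, 64 lay below the shorter isoforms' medians of both values and 1 above both. Taken separately, 95.3% of all used members lay below the shorter isoforms' median in TE and 71.6% in half-life. The number of the 1606 below both medians is not given here, so the 64 are not read as a joint trait.

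Features of the members were set beside their values with 1 isoform per 3′ end, as descriptions without a test. TE had a rank correlation of -0.331 with UTR length, -0.310 with the number of AUGs in the 5′ UTR and -0.106 with GC content over 196 ends. Members with no upstream AUG had a median TE of 0.000470 (106 ends) and those with at least 1 had 0.000355 (90 ends). Half-life had a rank correlation of 0.00106 with length, 0.115 with GC content and 0.200 with coverage over 252 ends. Decay coverage is pooled over the times after actinomycin D and can itself rise with half-life. Long UTRs with the Pumilio motif had a median TE of 0.000346 (29 ends) against 0.000428 (167), and a median half-life of 8.78 (36) against 9.65 (216), with overlapping quartiles. Sets with and without AUUUA clusters or microRNA sites had quartiles that overlapped likewise. For miR-133, medians were 0.000406 and 0.000423 in TE and 10.2 and 9.56 in half-life.

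Members with the same long 3′ UTR but different starts give the spread at a fixed UTR. For TE the pooled SD within a 3′ end was 0.40 on the log2 scale over 35 ends with several used isoforms, and the SD between 3′ ends 0.59. For half-life they were 0.59 over 37 ends and 0.67. The 4 isoforms of Myo1c, an unconventional myosin, spanned TE from 0.000224 to 0.000875 with 1 UTR of 1272 nt. In Synpo2l, a protein of the Z-disc region, 4 isoforms stayed between 0.000257 and 0.000345. Counting error, the start and the 5′ UTR all differ among such isoforms, and their parts in the spread were not tested.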

How the data were processed

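Per the submitters' processing notes, bcl2fastq 2.20.0, cutadapt 1.16, UMI-tools 0.5.4, STAR 2.5.3a and build GRCm39 were used. The authors deposited 1 table per assay with a whole-number coverage count per isoform, UTR sequences, and TE or half-life values, with no formula stated. No column holds a single library, columns of other samples number 0, and isoforms start at a coverage of 11 (polysome) or 21 (decay). No count model or test over mice was therefore possible, and all results are descriptions. UTR lengths, GC content, motifs, pairs and exact 95% intervals were computed with Python 3.11.15, pandas 2.3.3, numpy 2.4.6 and scipy 1.17.1, and checked on simulated data. Used values needed a coverage of at least 30 and a value above 0. A pair was called at 1.5-fold.

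A gene name required the first 30 nt of the 5′ UTR to occur in the RefSeq promoter windows of 1 gene on the same chromosome and strand. Names were then passed on through a shared 3′ end or the same first 30 nt of the 3′ UTR, steps added after the tables were seen. Genes described were, with a coverage of at least 100, the 5 most covered, the 3 longest, the 3 highest and 3 lowest by value and the 5 best covered pairs, plus the members at the length limit and those with the most sites of a motif. Others are stated as picked after their values were seen or illustrate counts. Members and lists were chosen with earlier results of these data known.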

Additional observations from a re-analysis of the deposited data

How the results depend on the processing

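Of 60 alternative values, 42 moved by less than their spread or counting interval. The relation of TE and half-life in members turned to a rank correlation of -0.112 with a coverage minimum of 60 (55 isoforms). The pooled long share at shared starts moved, in the polysome and decay table, to 29.1% and 20.8% with a coverage minimum of 30, to 20.0% and 21.6% with UTRs over 1000 nt and to 15.5% and 10.2% with UTRs over 1500 nt. Members numbered 674 in the decay table over 1000 nt, and 337 and 229 over 1500 nt. Their coverage share became 6.27% and 4.20% over 1000 nt and 1.71% and 0.907% over 1500 nt. It was 3.34% and 2.06% without isoforms whose UTRs exceed their genomic span, an alternative chosen after seeing the data. The pooled GC content of 50.4% became 50.2% over 1500 nt and 51.0% in annotated isoforms. Medians of TE, half-life and pair differences kept their direction under every alternative run, TE pairs from -0.99 to -0.66 and half-life pairs from -0.40 to -0.26.

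No paired analysis was possible because the tables hold no column of a single library or mouse, and for the same reason leaving out a replicate was not run. Depth limits single isoforms: the median pair had a coverage of 72 (TE) and 61 (half-life) in its less covered isoform. Splicing between the 2 ends, and thus the length of the coding region, is not in the tables, and the cause of each change above was not tested.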
